A study of Homo sapiens with 9 samples.

Results

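Chaperonins are barrel-shaped chaperones that take an unfolded protein into a closed chamber and release it after rounds of ATP hydrolysis. The cytosolic chaperonin, called TRiC or CCT, is built of stacked rings in which 8 different but related subunits each take 1 fixed place, and it is best known for folding actin and tubulin, with WD40-repeat proteins such as CDC20 and the G protein beta subunits among its other substrates. The mitochondrial chaperonin is built of HSPD1 (HSP60), which forms the chamber, and HSPE1 (HSP10), the lid that closes it over proteins that have entered the matrix. Both systems are required for growth in most dividing human cells.

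The chaperonin genes examined here were chosen by name: the 8 subunits of TRiC (TCP1, CCT2, CCT3, CCT4, CCT5, CCT6A, CCT7 and CCT8) together with HSPD1 and HSPE1, 10 of the 19114 genes of the library. Each was targeted by 4 guide RNAs, 40 of 77441 guides in all, and all 40 passed the filter on low day 0 values. The screen used HEL cells, a human erythroleukemia line with mutated JAK2 that expressed the nuclease Cas9, transduced with the genome-wide Brunello knockout library, which includes 1000 non-targeting control guides. One library was taken at day 0, 4 libraries after 12 days with the solvent DMSO, and 4 after 12 days with 200 nM ruxolitinib (RUX), an inhibitor of JAK1 and JAK2; all 9 libraries came from the same Cas9-expressing cell line. Since the knockouts are mixed in a pool of cells, the readout is how often a guide is found, not the protein it removes, and the loss of the proteins was not measured in these libraries.

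The 9 libraries held 19631338 to 26611323 reads on guides, with a median of 209 to 258 reads per guide. A guide score is the natural logarithm of its value at day 12 over its value at day 0, after 5 was added to both and the libraries were scaled on the control guides, and a gene score is the mean over the gene's guides. A negative score means that cells with the guide became rarer, and a gene score below −0.5 is counted here as low. That threshold was carried over from the dependency score of the study, which came from another model with copy number correction, so the scores are not the same quantity. The library DMSO replicate 3 stood apart, with an SD of 0.460 over its control guides against 0.264 to 0.303 in the other 7 day 12 libraries. Leaving it out changed no call among the chaperonin genes. The single day 0 library enters every score, so a deviation of a guide at day 0 shifts all 8 of its scores together. Its own spread could not be measured, and the tests against day 0 assume that it varied like the day 12 libraries.

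Most chaperonin genes had negative scores at day 12, but of very uneven size. In RUX 7 of the 10 genes had a mean score below −0.5, where 4.65% of all 19112 genes tested did, and in DMSO 6 of the 10 did, against 4.33% of all genes. The median over the 10 genes was −0.70 in RUX and −0.57 in DMSO, beside −0.095 and −0.085 over all genes tested. HSPE1 and CCT6A passed the limma test against day 0 in RUX, where 0.508% of all genes were called lower, and HSPE1 passed it in DMSO, where 0.351% were. None of these calls held with a pseudocount of 1 in place of 5 (limma adjusted p = 0.0534 and 0.0857 for HSPE1 in RUX and DMSO, and 0.0789 for CCT6A in RUX), nor with the median over guides or without the farthest guide of each gene. With a day 0 minimum of 100 in place of 30, CCT6A and not HSPE1 was called in DMSO. With a pseudocount of 20, CCT4 and CCT7 were called as well in both conditions, and CCT6A also in DMSO. On reads summed per gene, edgeR and DESeq2 called CCT4 and not CCT6A in both conditions. There HSPE1 was called by edgeR in RUX only, and by DESeq2 in neither condition.

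**Figure D1:**
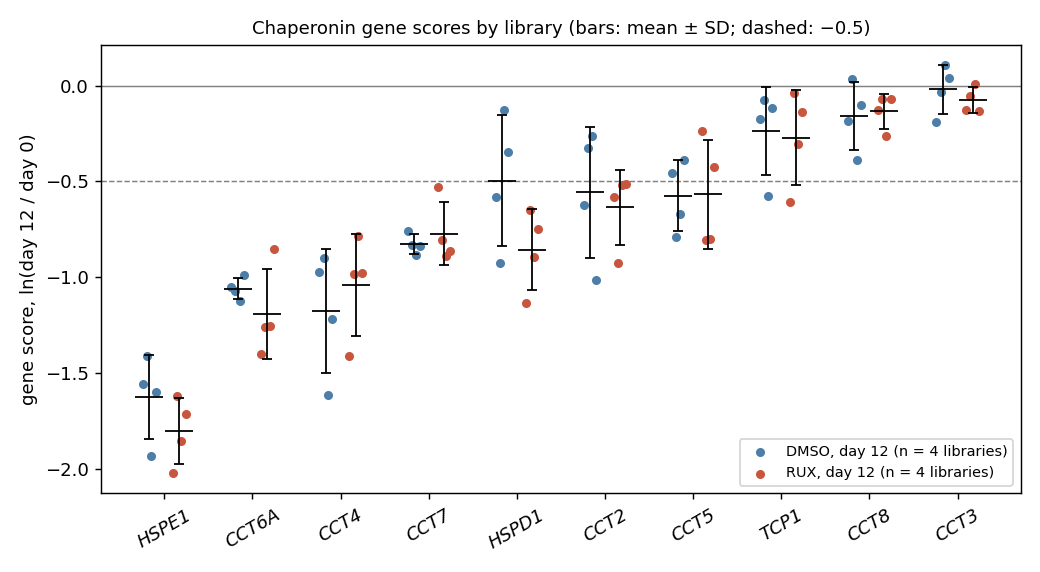
Gene scores of the 10 chaperonin genes (natural log of day 12 over day 0, vertical axis) in each of 4 DMSO and 4 RUX libraries, 1 point a library, with the mean and SD as black bars and the threshold of −0.5 dashed. HSPE1 sits lowest, at −1.41 to −2.02 in all 8 libraries, and CCT3 lies between −0.19 and 0.11.

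HSPE1, the lid of the mitochondrial chaperonin, was the lowest of the 10 genes. It lies on chromosome 2 (GRCh38, GENCODE 44, chr2:197500140-197503449, plus strand). Its score was −1.55, −1.41, −1.93 and −1.60 in DMSO replicates 1 to 4 and −2.02, −1.62, −1.85 and −1.71 in RUX replicates 1 to 4. All 8 values were lower than −1.4, and the DMSO and RUX ranges overlapped. The mean was −1.62 ± 0.22 (SD, n = 4) in DMSO and −1.80 ± 0.17 (SD, n = 4) in RUX, that is 19.7% and 16.5% of the day 0 level with the added 5. Among all genes tested it ranked 13 from the lowest in DMSO and 5 in RUX. The limma test across all genes gave an adjusted p of 0.00956 in DMSO and 0.00628 in RUX. Without DMSO replicate 3 the DMSO mean was −1.52, and HSPE1 was still called.

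The reads behind HSPE1 show 2 of its guides nearly gone. Guide sg_8981 had 117 reads at day 0, then 3, 1, 1 and 0 reads in DMSO and 0, 1, 0 and 1 in RUX. Guide sg_8983 had 80 reads at day 0, then 1, 8, 2 and 0 in DMSO and 2, 2, 2 and 1 in RUX. With so few reads left these scores, −3.05 and −3.17 for sg_8981 and −2.54 and −2.60 for sg_8983 in DMSO and RUX, lie close to the lowest values that the added 5 allows, −3.26 and −2.89. Guide sg_8984 was lost less, with scores of −1.14 ± 0.60 in DMSO and −1.15 ± 0.55 in RUX (SD, n = 4 each). The fourth guide, sg_8982, was above 0 in DMSO (0.24 ± 0.32, SD, n = 4) and scored −0.29 ± 0.46 in RUX (SD, n = 4). The gene score of HSPE1 is therefore a mean over unlike guides, and without sg_8981, its lowest guide, it would be −1.15 in DMSO and −1.35 in RUX.

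HSPD1, which forms the chamber that HSPE1 closes, scored higher than its partner in every library. The 2 genes lie head to head and overlap in the annotation (HSPD1 at chr2:197486584-197516737, minus strand), and they are known to share a promoter region. The HSPD1 score was −0.58, −0.92, −0.13 and −0.35 in DMSO replicates 1 to 4 and −1.13, −0.65, −0.89 and −0.75 in RUX replicates 1 to 4. Each RUX value lay below −0.6, while the DMSO values spread from −0.92 to −0.13, so that the groups overlapped. The mean was −0.496 ± 0.34 in DMSO, just above the threshold (−0.62 without DMSO replicate 3), and −0.86 ± 0.21 in RUX (SD, n = 4 each), with limma adjusted p = 0.609 and 0.171 against day 0. HSPE1 was lower than HSPD1 in 8 of 8 libraries, by 0.49 to 1.80. The libraries with the lowest HSPD1 score were replicate 2 of DMSO and replicate 1 of RUX.

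A single guide carried the HSPD1 score. Guide sg_8977 went from 218 reads at day 0 to 36, 4, 74 and 88 reads in DMSO and to 3, 36, 24 and 15 in RUX, and scored −1.80 ± 1.04 and −2.44 ± 0.68 (SD, n = 4 each). The other HSPD1 guides scored between −0.45 and 0.27 in both conditions, among them sg_8978, the best covered with 754 reads at day 0, at −0.18 in DMSO and −0.45 in RUX. Without sg_8977 the HSPD1 score would be −0.060 in DMSO and −0.33 in RUX.

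The scores of the TRiC genes were uneven, although their proteins share a ring. In each condition 5 of the 8 TRiC genes had a mean score below −0.5, and these were CCT6A, CCT4, CCT7, CCT2 and CCT5 both times. Without the lowest guide of each gene, CCT2 (−0.078 in DMSO and −0.22 in RUX) and CCT5 (−0.34 and −0.32) were above −0.5. So was CCT6A in DMSO (−0.44). How well each guide cut its target was not measured, so uneven guides and uneven subunits cannot be told apart. The mean over the 8 genes was nearly the same in each library, from −0.68 to −0.50 in DMSO and from −0.63 to −0.50 in RUX. The medians over all genes in the same libraries lay between −0.10 and −0.066.

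CCT6A, the zeta subunit (chr7:56051685-56063989, plus strand), was the TRiC gene called in RUX. Its score was −1.05, −1.07, −1.12 and −0.99 in DMSO replicates 1 to 4 and −1.40, −1.26, −1.25 and −0.85 in RUX replicates 1 to 4. The DMSO values were close together, and they lay inside the wider RUX range. The mean was −1.06 ± 0.056 in DMSO and −1.19 ± 0.23 in RUX (SD, n = 4 each), with limma adjusted p = 0.0529 and 0.0200. Without RUX replicate 4, which enters the shared estimate of the spread, the DMSO adjusted p by limma was 0.0412. CCT6A was among the 3 lowest TRiC genes in 8 of 8 libraries.

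The CCT6A score came from 2 guides. Guide sg_2525 went from 158 reads at day 0 to 8, 5, 2 and 4 in DMSO and 13, 19, 3 and 6 in RUX. Guide sg_2526 went from 104 reads to 18, 23, 19 and 21 in DMSO and 1, 5, 28 and 21 in RUX. Their mean scores were −2.92 and −1.56 in DMSO and −2.53 and −2.03 in RUX. The other guides, sg_2527 and sg_2528, scored 0.35 and −0.10 in DMSO and 0.18 and −0.38 in RUX, inside or near the range of the control guides. Without sg_2525, its lowest guide, the CCT6A score would be −0.44 in DMSO, above the threshold, and −0.74 in RUX.

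CCT4, the delta subunit (chr2:61868085-61888671, minus strand), reached scores like those of CCT6A with more spread. Its score was −0.97, −0.90, −1.61 and −1.22 in DMSO replicates 1 to 4 and −1.41, −0.98, −0.78 and −0.98 in RUX replicates 1 to 4. The lowest value came from DMSO replicate 3, the library with the widest control guides. The mean was −1.17 ± 0.32 in DMSO and −1.04 ± 0.26 in RUX (SD, n = 4 each), with limma adjusted p = 0.0688 and 0.110. CCT6A was lower than CCT4 in 4 of 8 libraries, so the order of these 2 genes was not resolved. In contrast to CCT6A, 3 of 4 CCT4 guides scored below −0.5 in each condition. Guides sg_28545 (408 reads at day 0) and sg_28548 (111 reads) were the lowest, at −1.48 and −1.68 in DMSO and −1.66 and −1.61 in RUX. Guide sg_28546 had −1.08 in DMSO and −0.39 in RUX, and sg_28547, with 639 reads at day 0, scored −0.46 and −0.505.

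CCT7, the eta subunit (chr2:73233420-73253021, plus strand), gave the most even values of the low-scoring subunits. Its score was −0.76, −0.83, −0.88 and −0.84 in DMSO replicates 1 to 4 and −0.53, −0.81, −0.89 and −0.86 in RUX replicates 1 to 4. RUX replicate 1 was the highest of the 8 values. The mean was −0.83 ± 0.051 in DMSO and −0.77 ± 0.16 in RUX (SD, n = 4 each), with limma adjusted p = 0.0794 and 0.105. Guides sg_28543 and sg_28544 stood at 24.9% and 25.1% of day 0 in DMSO and at 37.5% and 25.5% in RUX. The 2 guides with the most reads at day 0, sg_28541 (723 reads) and sg_28542 (505 reads), scored −0.31 and −0.22 in DMSO and −0.58 and −0.16 in RUX.

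CCT2 and CCT5, the beta and epsilon subunits, lay close to the threshold and did not pass the test in either condition. CCT2 (chr12:69585426-69601570, plus strand) scored −0.62, −0.33, −0.26 and −1.01 in DMSO replicates 1 to 4 and −0.58, −0.92, −0.52 and −0.51 in RUX replicates 1 to 4. CCT5 (chr5:10249929-10266389, plus strand) scored −0.46, −0.79, −0.67 and −0.39 in DMSO and −0.24, −0.80, −0.80 and −0.42 in RUX. Both genes had means between −0.63 and −0.56 in both conditions, with adjusted p from 0.406 to 0.541 by limma. One guide carried CCT2: sg_28550 went from 215 reads to 38, 35, 49 and 8 in DMSO and to 13, 24, 47 and 54 in RUX, a mean score of −1.99 and −1.89. The other 3 CCT2 guides scored between −0.47 and 0.31. In CCT5, sg_31314 (151 reads at day 0) scored −1.27 and −1.29 in DMSO and RUX, and sg_31312 (122 reads) −0.71 and −0.73, while the 2 other guides lay between −0.47 and 0.22.

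TCP1, CCT8 and CCT3 had the scores nearest to 0. TCP1, the alpha subunit (chr6:159778498-159789703, minus strand), scored −0.17, −0.077, −0.58 and −0.12 in DMSO and −0.61, −0.038, −0.31 and −0.14 in RUX, with means of −0.24 ± 0.23 and −0.27 ± 0.25 (SD, n = 4 each), and −0.12 in DMSO without replicate 3. One library in each condition, DMSO replicate 3 and RUX replicate 1, was below −0.5. Guide sg_18894 was its lowest, from 186 reads to 89, 159, 30 and 86 in DMSO and 56, 127, 94 and 78 in RUX. CCT8, the theta subunit (chr21:29055805-29073797, minus strand), ranged from −0.39 to 0.033 in DMSO and from −0.26 to −0.070 in RUX, with means of −0.16 and −0.13, and −0.084 in DMSO without replicate 3.

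CCT3, the gamma subunit (chr1:156308968-156367873, minus strand), had the highest mean of all 10 genes. Its score was −0.19, −0.036, 0.11 and 0.040 in DMSO replicates 1 to 4 and −0.13, −0.054, 0.0081 and −0.13 in RUX replicates 1 to 4. The values fell on both sides of 0 in each condition, with means of −0.021 ± 0.13 and −0.077 ± 0.067 (SD, n = 4 each). All 4 CCT3 guides stayed near their day 0 level: sg_19581 had 416 reads at day 0 and 337 to 605 reads in the 8 day 12 libraries, and no CCT3 guide had a mean score lower than −0.31. CCT3 and CCT8 were among the 3 highest TRiC genes in 8 of 8 libraries, and CCT6A, CCT4 and CCT7 were each lower than CCT3 and lower than CCT8 in 8 of 8. Whether the CCT3 guides cut their target was not measured in these libraries.

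In the order of the DMSO means (HSPE1, CCT4, CCT6A, CCT7, CCT5, CCT2, HSPD1, TCP1, CCT8, CCT3), only CCT6A and CCT7 were neighbours whose 4 libraries did not overlap. In the order of the RUX means (HSPE1, CCT6A, CCT4, HSPD1, CCT7, CCT2, CCT5, TCP1, CCT8, CCT3), only HSPE1 and CCT6A were. All other neighbours overlapped, so most steps of either order were not resolved between libraries. Since all libraries share the same guides and the day 0 library, libraries that do not overlap do not settle the order of the genes. In DMSO the CCT6A guides ran from −2.92 to 0.35 and the CCT7 guides from −1.39 to −0.22. In RUX the HSPE1 guides ran from −3.17 to −0.29 and the CCT6A guides from −2.53 to 0.18.

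The spread between the guides of a gene was larger than that between libraries for most members. For HSPE1 the SD between the 4 guides was 1.48 in DMSO and 1.32 in RUX, where the median SD between libraries of its guides was 0.36 and 0.28. For CCT6A it was 1.49 and 1.30, against 0.20 and 0.41. CCT3 was the opposite case in DMSO, with an SD of 0.054 between guides and 0.23 between libraries. For CCT4 in DMSO they were nearly equal, at 0.54 between guides and 0.56 between libraries. In all, 16 of the 40 guides had a mean score below −0.5 in each condition, which is 40% of them, where 11.9% of all 75434 guides tested did in DMSO and 11.8% in RUX. Of these, 14 were below −0.5 in both conditions, and 22 guides were so in neither. At least 2 guides were below −0.5 in 5 of the 10 genes in each condition, against 8.85% of all genes in DMSO and 8.91% in RUX.

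**Figure D2:**
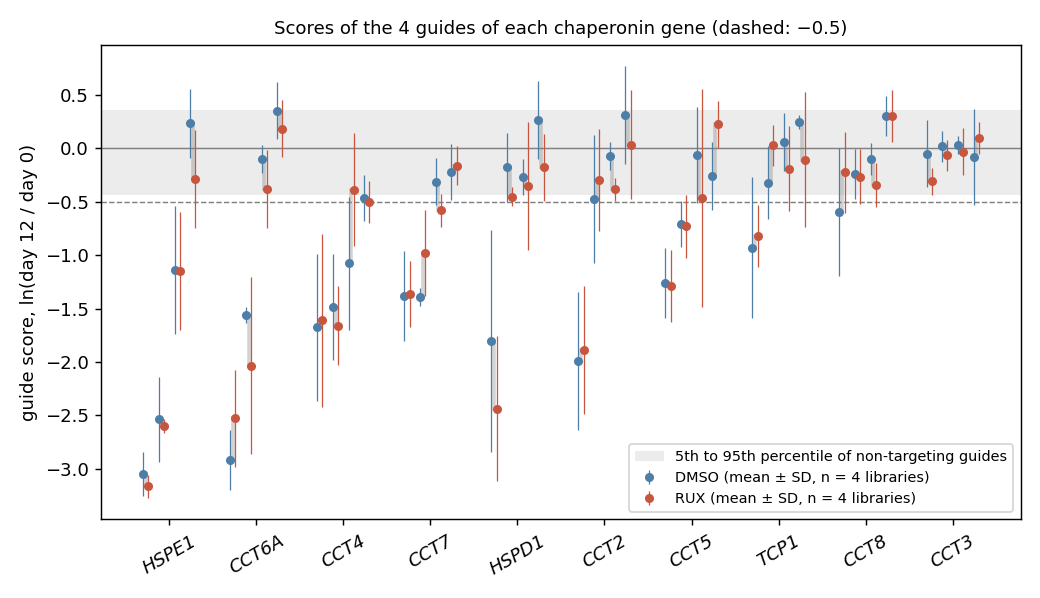
Scores of the 4 guides of each chaperonin gene (natural log of day 12 over day 0, vertical axis; points are means and bars SDs over 4 libraries), ordered within a gene from the lowest; the grey band spans the widest 5th to 95th percentile range of 990 control guides and the dashed line marks −0.5. HSPE1 has 3 low guides, HSPD1 and CCT2 have 1 each, and the CCT3 guides lie at about 0.

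The control guides have no target in the genome. The lowest of 990 control guides tested scored −1.27 in DMSO and −0.97 in RUX, and 11 chaperonin guides in DMSO and 12 in RUX were lower than that, as were 0.974% and 2.13% of all guides. Tested one by one with limma, no chaperonin guide passed in either condition, where 0% of all guides did (adjusted over 75434 guides), and 11 of 40 were lower at an unadjusted p under 0.05 in each condition, against 3.19% of all guides in RUX and 3.04% in DMSO. The number of reads at day 0 was alike in low and other guides: the median was 154.5 reads for the 16 guides below −0.5 in RUX and 145.5 reads for the rest. The median score of the 20 nearest genes lay between −0.20 and −0.029 over the 10 members and both conditions. It was above the score of the member for 9 of 10 in each condition, and below it for CCT3. For CCT8 the gap was small, with a score of −0.16 beside −0.15 in DMSO and −0.13 beside −0.11 in RUX. The share of all genes below their neighbours was not computed.

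The second comparison asked whether the dependence on chaperonins differed when JAK2 was inhibited. None of the 10 genes differed between RUX and DMSO in the limma test, where 0% of all genes were called, and edgeR and DESeq2 on reads summed per gene called none of the 10 either. At an unadjusted p under 0.05, 1 of the 10 genes passed, which was HSPD1, and 8.93% of all genes did. The 4 RUX and 4 DMSO values overlapped for all 10 genes, while they did not overlap for 4.93% of all genes.

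HSPD1 had the largest difference of the 10, −0.36 (95% interval −0.69 to −0.026), lower in RUX, with limma adjusted p = 0.536. An exact permutation test over the 8 libraries, two-sided, gave p = 0.143, where 0.0286 is the smallest value possible. The difference was −0.24 without DMSO replicate 3. Each of the 4 HSPD1 guides had a lower mean in RUX than in DMSO, with differences of −0.63 to −0.084. Their limma adjusted p ranged from 0.603 to 0.952. The guides are not replicates of a condition, and the share of all genes whose guides go in the same direction was not computed. HSPE1 differed by −0.18 (95% interval −0.52 to 0.17), with exact permutation p = 0.257, and by −0.28 without DMSO replicate 3. Of its guides sg_8982 differed most, with 169, 316, 149 and 227 reads in DMSO and 114, 233, 66 and 100 in RUX, from 145 at day 0.

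For the TRiC subunits the differences were small beside their intervals. CCT4 was 0.13 higher in RUX (95% interval −0.23 to 0.50; −0.011 without DMSO replicate 3) and the difference of CCT6A was −0.13 (95% interval −0.44 to 0.17). The other 6 subunits differed by −0.078 to 0.055, and their intervals lay between −0.40 and 0.32. The mean of the 8 TRiC genes was −0.58 ± 0.074 in DMSO and −0.59 ± 0.060 in RUX (SD, n = 4 each). These intervals leave room for moderate differences in either direction and do not show that the conditions were equal. Of the 40 chaperonin guides, 1 had RUX scores that did not overlap with its DMSO scores (sg_28551 of CCT2, −0.52 to −0.29 in RUX and −0.24 to 0.039 in DMSO), where 4.64% of all guides did not overlap.

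**Figure D3:**
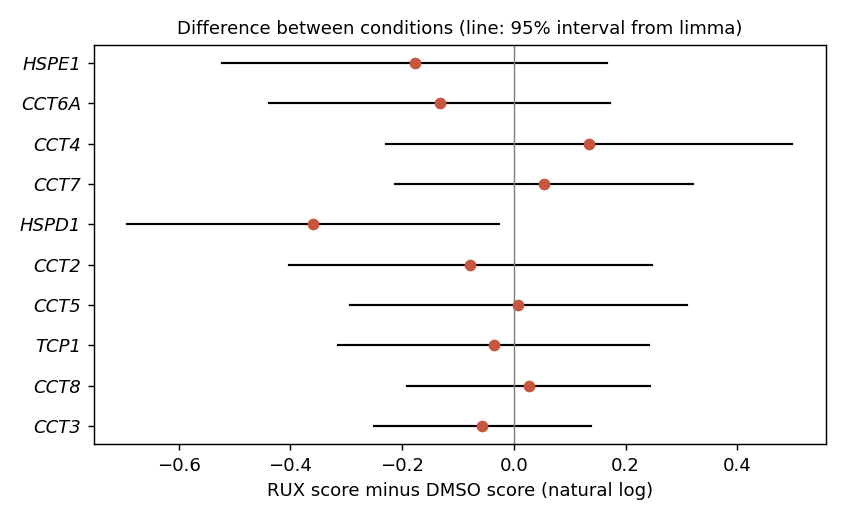
Difference between the RUX and DMSO gene scores (natural log, horizontal axis) for the 10 chaperonin genes, with the 95% interval from limma as a line. Only the HSPD1 interval, −0.69 to −0.026, does not include 0, before adjustment over all genes.

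The proteins that hand substrates to TRiC had scores nearer to 0 than CCT6A and CCT4, but overlapped with the other TRiC subunits. Prefoldin is a hexamer that binds nascent actin and tubulin and passes them to TRiC. Of its 6 genes 3 scored below −0.5 in RUX (PFDN2 at −0.58, PFDN6 at −0.57 and VBP1 at −0.56) and 1 in DMSO (PFDN6 at −0.51), and none passed the test. Over all genes, 4.65% in RUX and 4.33% in DMSO scored below −0.5. The prefoldin medians were −0.45 and −0.39 in RUX and DMSO, beside −0.095 and −0.085 over all genes. The phosducin-like proteins are cofactors that bind TRiC directly. Of the 4 tested, 1 scored below −0.5 in RUX and 0 in DMSO, with none called, and the list medians were −0.073 and −0.29. It was PDCL, which assists the folding of G protein beta subunits, at −0.76 ± 0.25 in RUX and −0.47 ± 0.22 in DMSO (SD, n = 4 each). Its RUX and DMSO values overlapped (limma adjusted p = 0.564 between conditions). The paralogs CCT6B and CCT8L2 and the chaperonin-like genes MKKS, BBS10 and BBS12, 5 genes in all, gave none below −0.5 and no call. CCT6B, the paralog of CCT6A, scored 0.14 in RUX and −0.058 in DMSO. CCT8L2 scored −0.27 in RUX and −0.45 in DMSO, where it was lower than TCP1, CCT8 and CCT3.

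Among 23 genes for proteins known to be folded by TRiC, 4 scored below −0.5 in RUX and 5 in DMSO, beside 4.65% and 4.33% of all genes. The list medians were −0.27 in RUX and −0.13 in DMSO. TUBB, a beta tubulin, was the lowest and the only one called. It scored −0.89, −1.13, −0.90 and −1.16 in DMSO replicates 1 to 4 and −1.53, −1.25, −1.20 and −1.41 in RUX replicates 1 to 4. All 4 RUX values lay below all 4 DMSO values, with a difference of −0.33 and limma adjusted p = 0.531. The same held for the G protein beta subunit GNB2 (difference −0.43, limma adjusted p = 0.281) and the beta tubulin TUBB4B (−0.21, 0.573). Both were named for this after their values were seen. That made 3 of the 23 genes, beside the 4.93% of all genes given before. In the other lists, 1 of 18 mitochondrial genes had RUX and DMSO values that did not overlap. This was so for 0 of 6 prefoldin, 0 of 4 phosducin-like, 0 of 5 paralog and chaperonin-like, 0 of 6 tubulin cofactor and 0 of 21 cytosolic HSP70 genes. Since the lists were chosen with earlier results of these data known, a shift of any list was not tested. Against day 0 the adjusted p of TUBB by limma was 0.0104 in RUX and 0.0544 in DMSO. The alpha tubulin TUBA1B followed at −0.67 and −0.56 in RUX and DMSO, the mitotic kinase PLK1 at −0.64 and −0.59, and the deacetylase HDAC3 at −0.56 and −0.55. MLST8, a subunit of the mTOR complexes, scored −0.34 in RUX and −0.55 in DMSO.

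The tubulin folding cofactors take tubulin after TRiC and assemble the heterodimer. Of 6 genes, 2 scored below −0.5 in RUX and 1 in DMSO, beside 4.65% and 4.33% of all genes, and none was called. TBCC scored −0.74 and −0.91 and TBCA −0.53 and −0.41 in RUX and DMSO. The list medians were −0.39 and −0.41.

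In mitochondria, 18 other chaperones and proteases had medians of −0.33 in RUX and −0.32 in DMSO. Of these, 4 and 3 genes were below −0.5, beside 4.65% and 4.33% of all genes, and none was called. The lowest was PMPCA, a subunit of the peptidase that removes import signals, at −0.98 ± 0.25 in RUX and −0.71 ± 0.25 in DMSO (SD, n = 4 each). DNLZ, an escort protein of mitochondrial HSP70, scored −0.67 and −0.59, HSCB, a cochaperone of iron-sulfur cluster assembly, −0.63 and −0.45, and the inner membrane protease AFG3L2 −0.55 and −0.55. The cytosolic HSP70 system, which binds many of the same new proteins, had 21 genes with medians of −0.19 and −0.18. Of these 21, 2 were below −0.5 in RUX and 3 in DMSO, beside the same shares of all genes, and none was called. HSPA8, its constitutive HSP70, scored −0.52 and −0.53, and BAG1 −0.57 and −0.59. The inducible HSPA6 scored −0.29 ± 0.10 in RUX and −0.78 ± 0.41 in DMSO (SD, n = 4 each). Its RUX and DMSO values overlapped (limma adjusted p = 0.458 between conditions). HSPE1 lay below every gene of these 7 lists in both conditions.

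**Figure D4:**
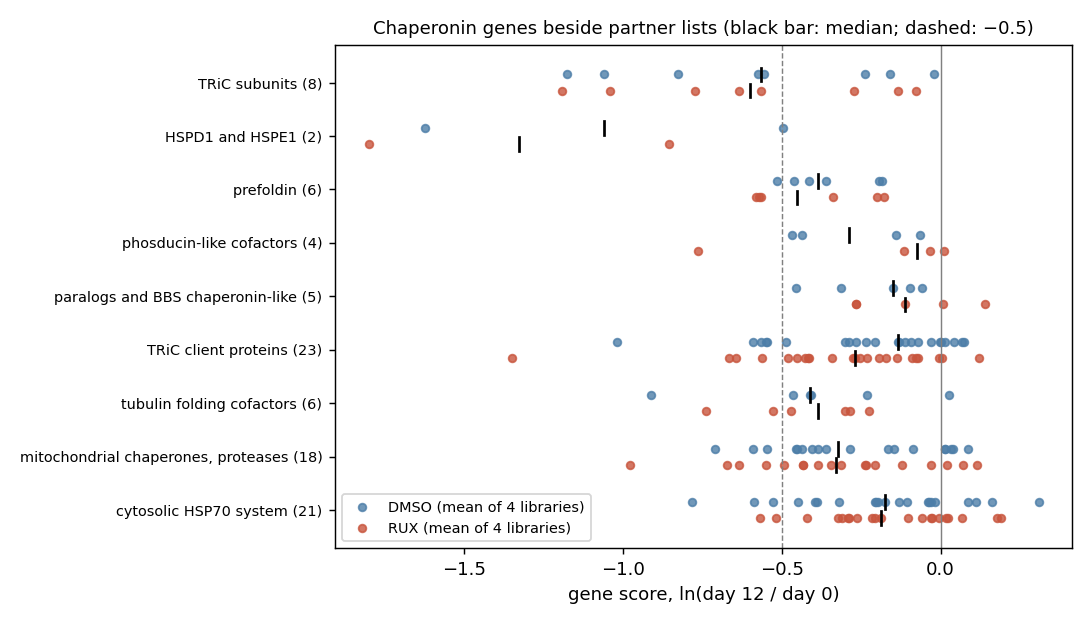
Gene scores (natural log of day 12 over day 0, horizontal axis; 1 point a gene, mean of 4 libraries) of the chaperonin genes and of 7 lists of partner genes, with the number of genes in parentheses, list medians as black bars and −0.5 dashed. The TRiC subunits spread from −1.19 to −0.021, and the partner lists lie mostly between −0.5 and 0.

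By the distance between the 8 day 12 scores, the genes most like HSPE1 were BUB3 (distance 0.384; −1.70 in RUX and −1.66 in DMSO), LOC100144595 and RPL27A. Those most like HSPD1 were DDX49 (distance 0.375; −0.76 and −0.51), XRCC5 and USP39. Those most like the mean of the 8 TRiC genes were AFG3L2 (distance 0.134), PTMA and SMNDC1. The likeness covers the level as well as the pattern of the scores over the 8 libraries.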

How the data were processed

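Genomic DNA of HEL-Cas9 cells was sequenced for the guides they carried. The authors counted guides with MAGeCK and deposited 1 normalized signal value per guide and library; each column held whole reads times 1 factor (100% of values within 0.001 of a whole number), so reads were recovered. Libraries were rescaled by the median ratio over control guides. Guides under a value of 30 at day 0, and genes with fewer than 2 guides left, were dropped. Scores, as natural logs with 5 added, were fitted with limma 3.58.1 in R 4.3.3 over 9 libraries (mean per condition, mean-variance trend) with Benjamini-Hochberg adjustment over all 19112 genes at 0.05. edgeR 4.0.16 and DESeq2 1.42.0 on reads were alternatives, and the scripts were tested on simulated data. The sources do not say whether the 4 libraries of a condition came from separate cultures, so p-values measure the spread between these libraries, which may be technical. Intervals cover that spread, and read counts without molecular identifiers are not independent molecules.

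The members and lists were chosen with earlier results of these data known. All 10 members are named; of each list, members below −0.5 or called were named, at most 5, or any in lists of up to 6 genes; likeness is Euclidean distance. Positions are from GENCODE 44 (GRCh38), matched for 17948 genes by symbol and 980 by an older symbol, with 184 not placed. The authors' correction for copy number was not repeated, and guide sequences were not used here.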

Additional observations from a re-analysis of the deposited data

Results flagged for a closer look

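Among the scores of the 10 chaperonin genes and their 40 guides, each taken in 2 conditions (100 groups of 4 libraries), 3 groups held a library far from the other 3 by Dixon's test, where chance flags about 1 in 20 groups, or 5 here. The CCT2 score of −0.92 in RUX replicate 2 lay below −0.58 to −0.51 in the other RUX libraries. Guide sg_19581 of CCT3 scored 0.30 in RUX replicate 3, against −0.17 to −0.11 in the others. Guide sg_2527 of CCT6A scored 0.58 in RUX replicate 4, against 0.025 to 0.089.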

How the results depend on the processing

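The called genes depended on the model and on the guides used, while the direction of every called value held under the alternatives run. Against day 0, 2 chaperonin genes were called in RUX and 1 in DMSO. No gene was called in either condition (0 and 0) with a pseudocount of 1, with the median over guides, without the guide farthest from the others, or without the lowest guide of each gene. With a pseudocount of 20 or without the mean-variance trend 4 and 4 were called, and with the trend taken over the mean guide level 5 and 4; that trend and the removal of the lowest guide were chosen after seeing the data. With a day 0 minimum of 100, 1 gene was still called in DMSO, but it was CCT6A (adjusted p = 0.0364) and not HSPE1 (−1.32, adjusted p = 0.0852). DESeq2 called 1 gene in RUX, CCT4, and the same in DMSO; edgeR called HSPE1 and CCT4 in RUX and CCT4 in DMSO. With the median of 20 neighbouring genes subtracted, 1 gene was called in RUX, HSPE1. Genes below −0.5 were 4 in RUX and 3 in DMSO without the farthest guide and without the lowest guide, and 4 in RUX with edgeR and with DESeq2, which sum reads and so weigh well-covered guides more. The adjusted p of HSPE1 ranged from 0.000107 to 0.545 in RUX and from 0.000149 to 0.888 in DMSO over 22 alternatives. That of CCT6A in RUX ranged from 0.00111 to 0.999. HSPD1 in RUX passed under 1 of 22, the trend over the guide level (0.0447). At guide level, a pseudocount of 20 gave 3 guides called in RUX and 2 in DMSO, and the other settings gave 0.

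Leaving out each replicate in turn gave 2 genes called in RUX each time and 1 to 2 in DMSO; the additional gene was CCT6A without RUX replicate 4.

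Small values that were never called changed sign. CCT3 in RUX was 0.0015 with the values as deposited, 0.00045 without the farthest or the lowest guide and 0.035 with neighbours subtracted. CCT3 in DMSO was 0.044 as deposited, 0.00095 with the library total, 0.0014 with the median over guides, 0.14 with neighbours subtracted, 0.022 with edgeR and with DESeq2, and −0.062 to 0.036 leaving out each replicate. For RUX against DMSO, TCP1 was 0.0074 with the library total and 0.069 with a day 0 minimum of 100, CCT5 −0.015 with a pseudocount of 1, −0.060 with the median over guides and −0.030 with neighbours subtracted, and CCT3 0.011 without the farthest or the lowest guide. CCT8 was −0.017 with the median over guides, −0.088 without the lowest guide, −0.0099 with neighbours subtracted and −0.063 with edgeR and with DESeq2, and CCT7 −0.090 with both. Leaving out each replicate, the differences ranged from −0.15 to 0.075 for TCP1, −0.23 to 0.019 for CCT2, −0.011 to 0.26 for CCT4, −0.10 to 0.088 for CCT5, −0.026 to 0.094 for CCT7 and −0.049 to 0.091 for CCT8. Over all 23 alternatives the CCT5 difference ranged more widely, from −0.10 to 0.26.

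The causes were not tested beyond what each alternative changes by construction. Same-numbered DMSO and RUX libraries deviated together with correlations of −0.13 to 0.034, so the numbers were taken not to pair the samples. With the replicate number as a block, 0 chaperonin genes were called between RUX and DMSO, as without it, and HSPD1 had a limma adjusted p of 0.598. Depth limits the lowest guides: those of HSPE1 were at 0 to 8 reads, where the pseudocount sets the score.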

Other observations

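The library also has guides for HSPE1-MOB4, a readthrough transcript annotated over HSPE1 and its neighbour MOB4. These genes were looked up after the HSPE1 values were seen. HSPE1-MOB4 scored −0.052 in RUX and −0.022 in DMSO, and MOB4 −0.25 and −0.21, where HSPE1 scored −1.80 and −1.62.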
